A study of Mus musculus with 39 samples.

Results

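Mouse embryonic stem cells (ESCs) treated with Activin A and Wnt3a together for 3 days were compared with cells kept for 3 days without either factor, by microRNA (miRNA) microarray. The comparison was set by the labels and used 6 of the 39 arrays of the series, 3 arrays of the treated group and 3 of the control group, and all 611 mature mouse miRNAs that the array carries. Both groups were TCL-1 cells, a single ESC line of 129/SvJae mice, grown on mouse embryonic fibroblasts that were largely removed on gelatin before seeding on collagen. Both were then kept in RPMI 1640 with B27 and sodium butyrate, renewed each day. The treated cells also received Activin A at 100 ng/ml and Wnt3a at 50 ng/ml, and the control cells received no growth factor. No genetic change was made in either group. The study asked which miRNAs take part when these factors together turn ESCs towards definitive endoderm, the germ layer that forms gut, liver and pancreas. Other arrays used here as references were Activin A alone and Wnt3a alone at day 3, the treated and control groups at days 1 and 5, and undifferentiated ESCs, with 3 arrays in each group.

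Activin A is a TGF-beta family ligand that signals through Smad2 and Smad3 in place of Nodal, the signal that patterns endoderm and mesoderm in the embryo, and Wnt3a acts through beta-catenin. A mature miRNA pairs with target mRNAs mainly through its seed, bases 2 to 8 from the 5′ end, so miRNAs with the same seed can share targets. In mouse ESCs the miR-290 cluster is the dominant miRNA product, with a seed also found in the miR-302 cluster, and the miR-200 family keeps cells epithelial by repressing Zeb1 and Zeb2.

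The sequences of the miRNAs on which the results turn are given first, grouped by seed, with the seed in capitals. They are the RefSeq mature sequences placed on GRCm38.p6, which held a match for 181 of the 319 miRNAs tested. Names without a listed sequence, such as miR-302a, miR-124 and miR-375, are given by name only. The miR-200 family is shown because all 5 members tested rose. It has 1 seed in miR-200b, miR-200c and miR-429 and another in miR-200a and miR-141. miR-200b (chr4:156055685-156055706), miR-200a (chr4:156054911-156054932) and miR-429 (chr4:156053916-156053937) lie on the minus strand within the long non-coding RNA gene Gm13648, and miR-200c (chr6:124718324-124718346) and miR-141 (chr6:124717917-124717938) lie on the minus strand of chromosome 6 in no annotated gene.
miR-200b: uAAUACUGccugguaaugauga
miR-200c: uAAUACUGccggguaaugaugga
miR-429: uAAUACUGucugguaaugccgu
miR-200a: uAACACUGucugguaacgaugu
miR-141: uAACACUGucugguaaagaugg

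The ESC clusters are shown because miR-291a-3p, miR-294, miR-295 and miR-302b share a seed, AAGUGCU. That of miR-302c, AGUGCUU, differs. The miR-290 cluster lies on the plus strand of chromosome 7 from miR-291a-3p (chr7:3218968-3218989) to miR-295 (chr7:3220815-3220837), within the annotated genes Nlrp12 and D7Ertd143e. The miR-302 cluster, with miR-302b at chr3:127545275-127545297, lies within Larp7. miR-20b and miR-92a of the miR-17 clusters, which fell, are shown beside them: the seed of miR-20b is that of miR-291a-3p moved by 1 base.
miR-291a-3p: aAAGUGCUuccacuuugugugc
miR-294: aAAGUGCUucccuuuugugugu
miR-295: aAAGUGCUacuacuuuugagucu
miR-302b: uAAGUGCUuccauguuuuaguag
miR-302c: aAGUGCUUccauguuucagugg
miR-20b: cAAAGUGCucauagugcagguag
miR-19b: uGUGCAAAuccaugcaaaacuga
miR-92a: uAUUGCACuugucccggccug

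Pairs that differ by 1 base, and pairs with the same seed that moved apart, are shown because a probe can bind a near-identical miRNA, so values of such pairs are uncertain. miR-27a differs from miR-27b at 1 of 21 bases, miR-99a from miR-100 at 1 of 22, miR-10a from miR-10b at 1 of 23 and miR-196a from miR-196b at 1 of 22. miR-27a (chr8:84208727-84208747) lies beside miR-23a (chr8:84208563-84208583). miR-10a (chr11:96317186-96317208) lies within Hoxb3, and miR-196b (chr6:52230129-52230150) between Hoxa9 and Hoxa10.
miR-27a: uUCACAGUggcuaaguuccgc
miR-27b: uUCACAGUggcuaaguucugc
miR-99a: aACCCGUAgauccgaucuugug
miR-100: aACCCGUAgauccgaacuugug
miR-10a: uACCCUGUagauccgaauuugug
miR-10b: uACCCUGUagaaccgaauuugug
miR-196a: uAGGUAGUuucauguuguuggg
miR-196b: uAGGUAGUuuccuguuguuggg
miR-181b: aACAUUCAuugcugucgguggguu
miR-181c: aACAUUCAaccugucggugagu
miR-125a-5p: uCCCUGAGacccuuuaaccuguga
miR-125b-5p: uCCCUGAGacccuaacuuguga

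The last set holds single miRNAs with large differences. miR-335-5p (chr6:30741314-30741336) lies within Mest, an imprinted gene. miR-322 (chrX:53054306-53054327) and miR-503 (chrX:53054027-53054049) lie on the minus strand within the non-coding gene C430049B03Rik, and miR-322 has the seed of miR-15b.
miR-335-5p: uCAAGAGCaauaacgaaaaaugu
miR-322: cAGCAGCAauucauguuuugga
miR-15b: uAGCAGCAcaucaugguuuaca
miR-503: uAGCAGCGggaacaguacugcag
miR-219: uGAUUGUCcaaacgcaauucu
miR-222: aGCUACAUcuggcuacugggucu
let-7e: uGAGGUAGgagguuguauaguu
let-7c: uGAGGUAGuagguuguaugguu

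Of the 611 mouse miRNAs, 250 to 296 were detected on the control arrays and 280 to 312 on the treated arrays, and no spot was saturated. Values are log2 of the total signal of a miRNA after quantile normalization, with a floor of 1.00 that also holds miRNAs that were not detected. Control replicate 2 stood apart in depth: it detected 250 miRNAs against 293 and 296 on the other control arrays, and its lowest detected signal was 11.3 against 3.77 and 3.53, so that several weak miRNAs were missed on that array alone. Without it, 70 miRNAs were called in place of 66. The treated arrays were all on 1 slide, scanned in a later session than the slides that held the control arrays of day 3, so treatment and slide cannot be told apart within day 3. Arrays of a group correlated at 0.983 to 0.995, and nothing in the labels says that they came from separate cultures, so p-values measure only the spread between these samples, which may be technical. In bulk RNA, fewer cells of a type and less RNA per cell cannot be told apart.

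At day 3, 319 miRNAs could be tested, and 66 of them (20.7%) were called, with an adjusted p under 0.05 in limma and more than 2-fold between the groups. Of these, 42 (13.2%) were higher and 24 (7.52%) were lower with Activin A plus Wnt3a. Rise and fall mean treated against control at day 3, not a change over time. By adjusted p alone, 88 were higher and 102 were lower, and 124 of these 190 stayed within 2-fold. The median difference over all miRNAs tested was -0.02 on the log2 scale. The groups did not overlap for 62 of the 66 called, against 192 of all 319 (60.2%). Detection split the calls: 37 were detected on all 6 arrays, 9 rose from no detection on any control array, and 6 fell to no detection on any treated array. For those 15 any log2 difference depends on the floor. A fold change, where given, is a bound, the bright group's mean against the weakest signals that were still detected.

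Normexp background correction with an offset of 50, which pulls weak signals together by its construction, left 15 calls, of which 14 were among the 66. These 14 were miR-200b, miR-23a, miR-24, miR-27a, miR-291a-3p, miR-292-3p, miR-293 and miR-295 above control and miR-19b, miR-20b, miR-92a, miR-219, miR-335-5p and miR-1224 below it. Scaling to the 75th percentile of detected miRNAs, in place of quantile normalization, kept 52 of the 66 calls and lost 14, all without a change of sign, and quantile normalization within each day kept 60. For 13 of the 66, the call was lost on leaving out at least 1 of the 12 arrays in the fit. Set against the control of day 5, which shared the slide of the treated arrays but differed in time, 62 of the 66 had the same sign and 52 were called in the same direction, where 129 of 363 miRNAs were called.

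**Figure D1:**
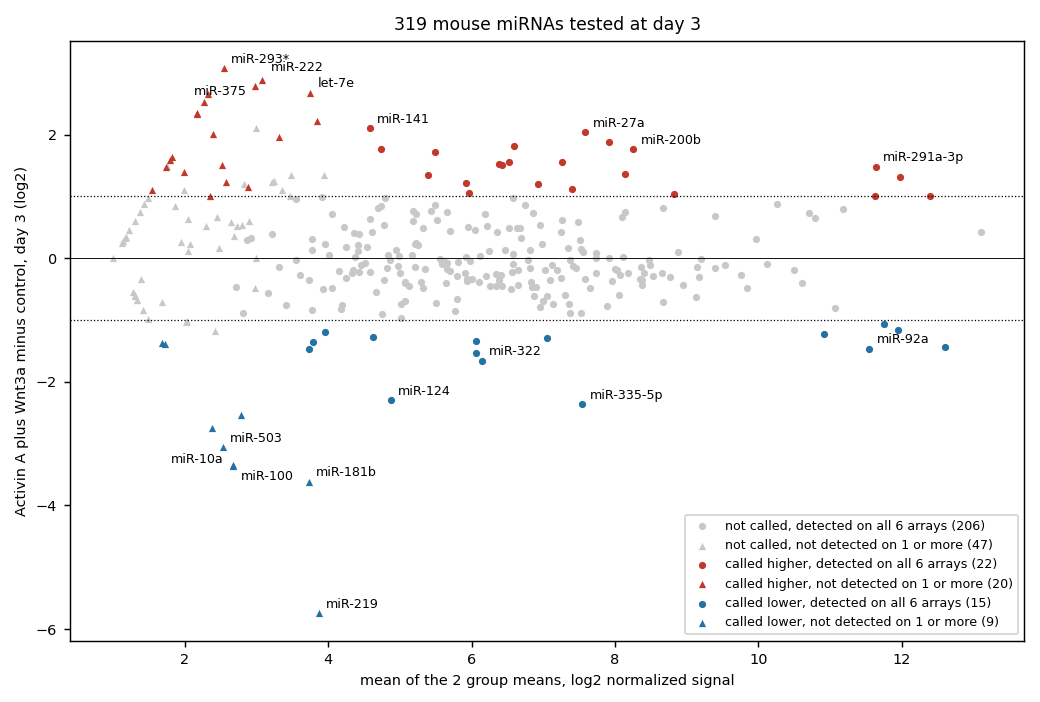
Difference between Activin A plus Wnt3a and control at day 3 (y axis, log2) against the mean level of the 2 groups (x axis, log2 normalized signal) for the 319 miRNAs tested. Red points are called higher, blue points called lower and grey points not called, circles were detected on all 6 arrays and triangles were not, and dotted lines mark 2-fold. miR-219 lies lowest, at -5.74, and the called circles above a mean of 11 include miR-291a-3p above and miR-92a below.

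The miR-200 family, which holds cells in an epithelial state, rose as a whole. All 5 members tested were called higher, against 13.2% of all miRNAs tested. Their differences ran from 1.55 to 2.11 with a median of 1.76, against a median of -0.02 for all miRNAs. Their summed normalized signal was 359 to 384 on the control arrays and 1176 to 1244 on the treated arrays. The other strands, miR-200a*, miR-200b*, miR-200c* and miR-141*, were detected too rarely to test.

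miR-200b, the member with the strongest signal, read 7.31, 7.36 and 7.46 on the control arrays and 9.07, 9.22 and 9.13 on the treated arrays. The treated arrays were all higher, by 1.76 ± 0.06 (SE, n = 3 and 3; limma, adjusted p = 1.22e-08), or 3.40-fold. miR-200a read 5.74, 5.76 and 5.53 in control and 7.43, 7.43 and 7.63 with treatment, a 3.53-fold rise (adjusted p = 6.11e-08). miR-429 went from a mean of 6.48 ± 0.09 (SD, n = 3) to 8.04 ± 0.03, and miR-200c from 5.75 ± 0.09 to 7.30 ± 0.01. miR-141, the dimmest member, read 3.49, 4.05 and 3.04 in control and 5.67, 5.58 and 5.67 with treatment. Its 4.31-fold difference was the largest of the family, and so was its spread among control arrays, with an SE of 0.22. Members of both seed groups and of both genomic clusters were among these, with 2.93-fold for miR-200c as the smallest rise. miR-205, which also represses Zeb1 and Zeb2, was detected on 2 of 3 control arrays, at 3.20 and 3.99, and on all treated arrays, at 5.07, 4.84 and 4.95 (difference 2.23 ± 0.59, adjusted p = 0.00884).

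The miR-290 cluster, which promotes the rapid cell cycle of ESCs, was also higher with treatment. Of 13 products tested, 11 were called higher, against 13.2% of all miRNAs tested, and none lower, with a median of 1.35. The count depended on the scaling: 7 were called with the 75th percentile of detected miRNAs and 8 with quantile normalization within each day, while 12 were higher by adjusted p alone in each. The summed signal was 18222 to 19458 on the control arrays and 34561 to 35790 on the treated arrays. As defining products of ESCs, they were detected on every array of both groups except miR-293*, miR-291b-5p and miR-291b-3p.

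miR-291a-3p read 10.98, 10.98 and 10.74 in control and 12.18, 12.48 and 12.48 with treatment. All treated arrays were above all control arrays, by 1.48 ± 0.11 (SE; adjusted p = 2.24e-06), a 2.80-fold rise. miR-292-3p read 11.27, 11.27 and 11.43 against 12.64 on each treated array, 2.50-fold higher (adjusted p = 5.13e-08). Its difference of 1.32 became 0.99 with the 75th percentile of detected miRNAs and 0.73 with quantile normalization within each day, so the call was lost under both. miR-295 and miR-293 were just over the 2-fold limit, at 1.00 ± 0.10 and 1.01 ± 0.15, and under it in both of those settings, as was miR-290-5p with the first. miR-294, the member with the strongest signal, read 12.89 on every control array and 13.32 on every treated array. It held the top rank on each treated array, where quantile normalization gives equal ranks equal values, so its difference of 0.43 has a ceiling that the method sets.

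In the main setting the weaker strands of the cluster had the larger differences, though miR-291a-5p and miR-291a-3p were close, at 1.51 and 1.48. miR-293* was not detected on any control array and read 4.35, 3.93 and 3.95 with treatment, at least 3.18-fold higher (adjusted p = 8.65e-08). miR-295* rose 3.40-fold from a mean of 3.85 ± 0.31 to 5.62 ± 0.09, and miR-294* rose 3.30-fold from 4.63 ± 0.31 to 6.36 ± 0.15. With normexp the order was the other way: miR-293*, miR-295*, miR-292-5p and miR-291a-5p were at 0.21, 0.27, 0.40 and 0.44. Their other strands miR-293, miR-295, miR-292-3p and miR-291a-3p were at 1.04, 1.13, 1.26 and 1.70 there, and miR-294* turned to -0.37. miR-292-5p and miR-291a-5p rose 2.87-fold and 2.86-fold, and miR-290-3p and miR-290-5p 2.56-fold and 2.05-fold. In the main setting no tested product of the cluster was lower, and the 2 not called were miR-294 and miR-291b-5p, the latter at 1.10 with an adjusted p of 0.166.

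The miR-302 cluster, which in the mouse embryo follows miR-290 and marks the primed epiblast and early germ layers, shifted less. All 8 products had an adjusted p under 0.05 in the higher direction. In the main setting 3 of them passed 2-fold, all passenger strands, against 13.2% called higher of all miRNAs tested. With the 75th percentile of detected miRNAs, and with quantile normalization within each day, 4 were called, a main strand among them. With normexp 1 was called, and it was no passenger strand. miR-302a* read 5.30, 5.24 and 5.43 in control and 6.52, 6.56 and 6.53 with treatment, 2.32-fold higher (adjusted p = 8.65e-08). miR-302b* and miR-302c* were not detected in control and were detected on all treated arrays, at least 1.91-fold and 1.05-fold higher. The main strands stood high in both groups and differed by under 2-fold in the main setting. There miR-302a was higher by 0.80 ± 0.08, miR-302b by 0.74 ± 0.07, miR-302c by 0.69 ± 0.04, miR-302d by 0.66 ± 0.09 and miR-367 by 0.88 ± 0.24. Of the miRNAs tested with the seed AAGUGCU and a RefSeq sequence, miR-291a-3p and miR-295 were called and miR-294, miR-302b and miR-302d were not.

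**Figure D2:**
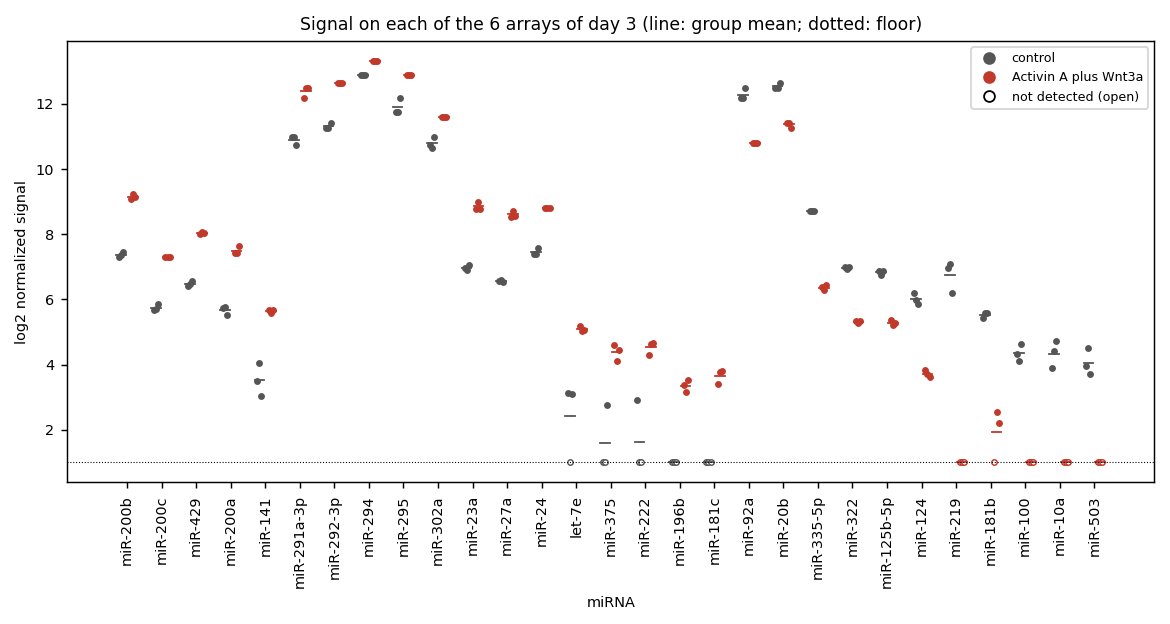
Log2 normalized signal of 29 miRNAs on each of the 3 control and 3 Activin A plus Wnt3a arrays of day 3. Points are single arrays, short lines are group means, the dotted line is the floor, open points mark arrays on which the miRNA was not detected, and the values of the 2 groups stand apart for the miR-200 family, miR-23a, miR-27a, miR-335-5p and miR-322.

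miR-23, miR-27 and miR-24, transcribed together from a cluster on chromosome 8 and a related one on chromosome 13, rose as a group. All 6 tested were called higher, against 13.2% of all miRNAs tested, with a median of 1.50. miR-27a read 6.58, 6.59 and 6.53 in control and 8.52, 8.72 and 8.57 with treatment, 4.11-fold higher (difference 2.04 ± 0.06, adjusted p = 1.22e-08). miR-23a read 6.97, 6.90 and 7.05 against 8.78, 9.0 and 8.78, 3.67-fold higher. These 2 had the larger differences, and both belong to the chromosome 8 cluster. Of the chromosome 13 cluster, miR-27b rose 2.30-fold and miR-23b 2.19-fold, and miR-24, which comes from both clusters, rose 2.57-fold to 8.82 on each treated array. miR-27a and miR-27b differ by 1 base, so part of either signal may come from the other. miR-24-2*, the passenger strand of the chromosome 8 copy, was detected only on treated replicates 2 and 3, at 3.53 and 3.40 (adjusted p = 0.0253). Its call was lost in 4 of 16 other settings and without any 1 of the 3 control arrays, with differences from 1.64 to 2.46 when 1 array was left out, so the count of 6 rests in part on 2 detections.

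In the opposite direction, the miR-17 clusters, which drive proliferation, were lower. Of 18 members tested, 4 were called lower, against 7.52% of all miRNAs tested, and none higher. By adjusted p alone 13 were lower, with a median of -0.46. With the 75th percentile of detected miRNAs none of the 18 was called, while 16 were lower by adjusted p alone and the median was -0.49. The direction of the list thus held, and its members past 2-fold depended on the scaling. The summed signal was 22467 to 24852 on the control arrays and 11931 to 12719 on the treated arrays. These sums are of quantile-normalized signals and depend on the scaling too. Before normalization, miR-20b, the member with the strongest signal, read 4134, 4431 and 4004 in control and 3440, 2664 and 3500 with treatment.

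miR-92a read 12.18, 12.18 and 12.48 in control and 10.81 on each treated array, a fall of 1.47 ± 0.10 on the log2 scale (adjusted p = 1.26e-06), or 2.76-fold. With the 75th percentile of detected miRNAs it was lower by 1.64-fold (adjusted p = 1.69e-05). miR-20b read 12.48, 12.48 and 12.64 against 11.43, 11.43 and 11.27, 2.24-fold lower (adjusted p = 1.10e-07). With the 75th percentile of detected miRNAs it was 1.52-fold lower, and quantile normalization within each day also left it within 2-fold, at -0.65. miR-19b read 12.64, 12.64 and 11.59 against 11.27, 10.98 and 11.43, so that control replicate 3 came close to the treated arrays (difference -1.07 ± 0.25, adjusted p = 0.00461). It was within 2-fold under the same 2 settings, at -0.51 and -0.65, and without control replicate 1, control replicate 2 or treated replicate 2. miR-92a* was detected on 2 of 3 control arrays, at 3.16 and 3.13, and on 1 treated array, at 1.10, and its call was lost without any 1 of 5 of these 6 arrays (differences from -2.11 to -1.03), all but control replicate 2. miR-20a was lower by less than 2-fold, from 11.48 ± 0.18 to 10.67 ± 0.05, and miR-17 itself differed by -0.14 ± 0.05. Against the same-slide control of day 5, miR-92a was lower by less than 2-fold, at -0.77 (adjusted p = 3e-06), and miR-92a* was at 0.03.

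miRNAs known from neural cells were lower with treatment. Of 8 tested, miR-219, miR-124 and miR-124* were called lower, against 7.52% of all miRNAs tested. None was called higher, and 6 were lower by adjusted p alone, with a median of -0.96. miR-219, known from oligodendrocytes and the nervous system, read 6.95, 7.10 and 6.19 in control and was not detected on any treated array, at least 31.0-fold lower (adjusted p = 1.22e-08). This was the largest difference of all miRNAs tested. miR-124, which drives neuronal differentiation, read 6.21, 5.97 and 5.87 in control and 3.84, 3.71 and 3.62 with treatment, 4.91-fold lower (adjusted p = 1.10e-07). Its other strand, miR-124*, read 3.30, 3.91 and 4.05 and was not detected with treatment, at least 3.89-fold lower. miR-9, expressed in neural progenitors, differed by less than 2-fold, at 5.16, 5.32 and 5.33 in control and 4.82, 4.82 and 4.99 with treatment. miR-129-3p and miR-128 were lower by 0.91 and 0.54, within 2-fold, and miR-9* and miR-153 did not pass the test. miR-132, miR-137, miR-138, miR-129-5p and miR-488 were not detected on any of the 6 arrays. The summed signal of the neural list was 272 to 325 in control and 81.9 to 90.6 with treatment. miR-135a, which is no member of that list, read 5.32, 5.30 and 5.16 against 3.53, 4.07 and 4.35, 2.42-fold lower (adjusted p = 0.000354).

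Marker lists of other cells were read for the cells that the dishes could hold. Of the fibroblast and mesenchyme list, relevant to leftover feeders, 6 of 10 could be tested and miR-143, miR-145, miR-199a-5p and miR-214 were not detected on any of the 6 arrays. Its summed signal was 945 to 1205 in control and 1231 to 1319 with treatment, carried mainly by miR-21, which is broadly expressed and read 9.65, 9.74 and 10.04 against 10.16, 10.16 and 10.04. By adjusted p alone 4 of the 6 tested were higher and 1 lower, with a median of 0.32. With either 75th percentile 1 member was called higher and none lower. In the main setting miR-199a-3p was the only called member, where 7.52% of all miRNAs tested were called lower. It was lower, at 3.30, 2.67 and 3.37 against 4.60, 4.15 and 4.66 in control (difference -1.36 ± 0.49, adjusted p = 0.0356). This call was lost in 8 of 17 other settings, both 75th percentiles among them, and without any 1 of 5 of the 6 arrays, all but control replicate 2 (differences from -1.52 to -1.14). The blood and endothelium list summed to 30.9 to 53.9 in control and 56.9 to 63.1 with treatment, with none of 5 called. miR-451, miR-144 and both strands of miR-142 were not detected. miR-223 was detected on control replicate 3 alone, at 3.81, and on all treated arrays, at 4.07, 4.17 and 3.91 (adjusted p = 0.0521). None of the 7 muscle miRNAs, miR-1 and miR-133a among them, was detected. The part of other cell types in the differences was not tested.

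miR-335-5p, encoded within Mest, had the largest difference below control among miRNAs detected on all 6 arrays. It read 8.72 on each control array and 6.37, 6.30 and 6.43 with treatment, lower by 5.14-fold (difference -2.36 ± 0.08, adjusted p = 1.22e-08). miR-335-3p, the other strand, was lower by less than 2-fold, at 7.82, 7.67 and 7.94 against 6.84, 6.95 and 6.97 (difference -0.89 ± 0.10, adjusted p = 4.37e-05). In undifferentiated ESCs miR-335-5p averaged 2.26, so that both groups of day 3 stood above that level.

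miR-322 and miR-503, the mouse counterparts of human miR-424 and miR-503 and known to slow the cell cycle, were both lower than in control. miR-322 read 7.0, 6.93 and 7.0 in control and 5.33, 5.29 and 5.33 with treatment, 3.15-fold lower (adjusted p = 1.22e-08). miR-503 read 3.95, 4.51 and 3.71 and was not detected with treatment, at least 4.81-fold lower (adjusted p = 1.32e-06). Neighbours in the same cluster did not follow them past 2-fold: miR-351 was at 2.25 on 2 control arrays and undetected elsewhere, and miR-450a-5p was higher by 0.54 ± 0.12. miR-15b and miR-16, which share the seed of miR-322, were bright and did not pass the test, at 9.88 ± 0.34 against 9.62 ± 0.04 and 9.60 ± 0.13 against 9.49 ± 0.00, and none of the 6 tested of the miR-15 and miR-16 list was called.

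The miR-99, miR-100 and miR-125 miRNAs, encoded in 3 clusters with let-7 copies, did not move as 1 group. Of 7 tested, 4 were called lower, against 7.52% of all miRNAs tested, and none higher, with a median of -1.37. miR-100 read 4.31, 4.11 and 4.64 in control and was not detected with treatment, at least 5.91-fold lower (adjusted p = 1.22e-08). miR-125b-5p read 6.88, 6.74 and 6.86 against 5.37, 5.21 and 5.29, 2.90-fold lower (adjusted p = 3.53e-08). miR-99a was detected on 2 of 3 control arrays, at 2.88 and 3.23, and on no treated array, at least 1.49-fold lower (adjusted p = 0.0269). The call was lost in 4 of 16 other settings and without any 1 of 5 of the 6 arrays, all but control replicate 2, with differences from -2.06 to -0.94. These 3 come from the clusters on chromosome 9 and chromosome 16. Some products of the chromosome 17 cluster within Spaca6 ran the other way, though within 2-fold. miR-125a-5p was higher by 0.97 ± 0.09 and miR-99b by 0.87 ± 0.10. Their other strands were lower. miR-125a-3p was within 2-fold, at -0.38 (adjusted p = 0.000126). miR-99b* was at 4.40, 4.62 and 4.40 in control against 2.88, 3.37 and 2.74 with treatment (difference -1.47 ± 0.24), but at 0.03 against the same-slide control of day 5. miR-125a-5p and miR-125b-5p share a seed, CCCUGAG, and lay on opposite sides of 0.

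let-7 miRNAs, which oppose the ESC programme and are held back there by Lin28, were weak on these arrays: let-7b, let-7d, let-7g, let-7i and miR-98 were not detected on any of the 6. Of the 4 tested, let-7e and let-7c were called higher, against 13.2% of all miRNAs tested. let-7e, also of the chromosome 17 cluster, was detected on 2 of 3 control arrays, at 3.13 and 3.10, and on all treated arrays, at 5.19, 5.03 and 5.05 (difference 2.68 ± 0.49, adjusted p = 0.000951). let-7c, with copies on chromosome 15 and on chromosome 16 beside miR-99a, read 2.95 and 3.07 on the same 2 control arrays. It read 4.57, 4.15 and 4.17 with treatment. The array without detection was control replicate 2 in both cases. let-7a and let-7f were higher by 0.81 ± 0.22 and 0.51 ± 0.11, within 2-fold.

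The miR-181 family split. miR-181b read 5.43, 5.59 and 5.58 in control and was detected on 2 of 3 treated arrays, at 2.54 and 2.21 (difference -3.62 ± 0.57, adjusted p = 0.000372). miR-181c was not detected in control and read 3.40, 3.77 and 3.81 with treatment, at least 2.38-fold higher (adjusted p = 0.00133). These 2 share a seed and also the later stretch cugucggug, at a shifted position. miR-181d was higher by 0.60 ± 0.16, within 2-fold, and miR-181a was seen on 1 control array only.

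Among miRNAs of the Hox clusters, which help to set position along the body axis, miR-10a and miR-196b moved in opposite directions. miR-10a read 3.88, 4.41 and 4.72 in control and was not detected with treatment, at least 5.85-fold lower (adjusted p = 1.29e-07). miR-10b, which differs from it by 1 base, read 3.93, 4.26 and 4.70 against 4.70, 4.35 and 4.51 and did not pass the test, with -0.91 against the same-slide control of day 5 (adjusted p = 0.405). miR-196b was not detected in control and read 3.37, 3.16 and 3.52 with treatment, at least 1.92-fold higher (adjusted p = 0.00120). miR-196a was detected on treated replicates 2 and 3 only, at 1.99 and 1.00, and did not pass the test.

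Of the gut, liver and pancreas list, 5 of 12 could be tested and 1 was called higher. The share called higher over all miRNAs tested was 13.2%. miR-375, known for its role in pancreatic islets, was detected on 1 control array, at 2.77, and on all treated arrays, at 4.60, 4.11 and 4.43 (difference 2.79 ± 0.43, adjusted p = 0.000315). miR-218 read 5.80, 5.90 and 5.81 against 6.64, 6.52 and 6.50, higher by 0.71 ± 0.05 and within 2-fold, and turned to -0.38 against the same-slide control of day 5. miR-7a was higher by 0.48 ± 0.07. The liver miRNA miR-122 and miR-192, miR-194, miR-215, miR-216a, miR-216b and miR-217 of gut and pancreas were not detected on any of the 6 arrays.

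A pool of 6 miRNAs that the study chose on these samples gave 5 calls higher, against 13.2% of all miRNAs tested, and none lower. Because of that choice, this is not independent evidence of their direction. Besides miR-181c, miR-196a, miR-196b and let-7e above, the pool held miR-222 and miR-338-5p. miR-222 was detected on control replicate 1, at 2.91, and on all treated arrays, at 4.29, 4.62 and 4.66 (difference 2.89 ± 0.43, adjusted p = 0.000267). Its neighbour miR-221, with the same seed, was bright in both groups and higher by 0.49 ± 0.07, within 2-fold. miR-338-5p was at 2.15 on control replicate 1 alone and at 3.69, 3.42 and 3.07 with treatment. Against the same-slide control of day 5, miR-222 was at 1.08 (adjusted p = 0.346) and miR-338-5p at 0.57 (adjusted p = 0.181).

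**Figure D3:**
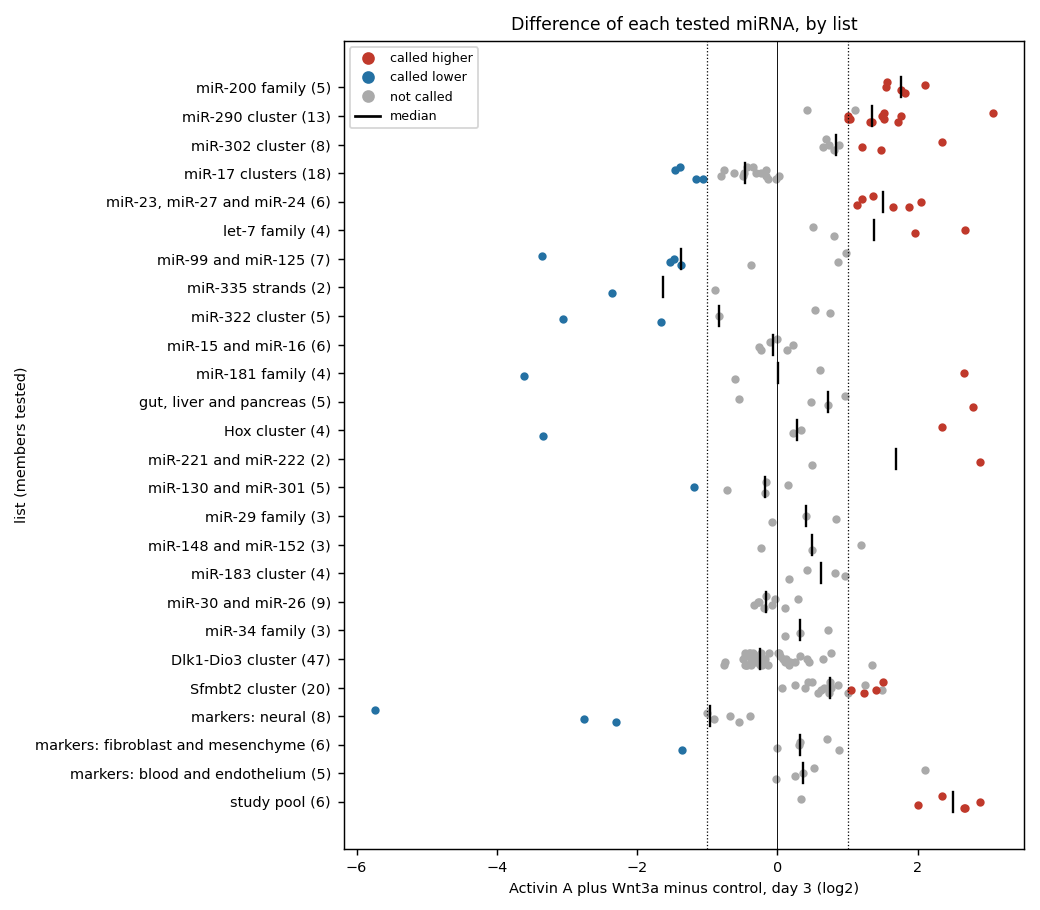
Log2 difference between Activin A plus Wnt3a and control at day 3 (x axis) of every tested member of each miRNA list (points, one line per list) with the list's median (bar). Red points are called higher, blue points called lower and grey points not called, and the dotted lines mark 2-fold. All tested members of the miR-200 family and of miR-23, miR-27 and miR-24 lie above 2-fold, whereas the Dlk1-Dio3 cluster holds no called member.

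The large imprinted Dlk1-Dio3 cluster, active in the embryo and brain, shifted little: none of 47 tested was called, with a median of -0.25, though 26 were lower and 2 higher by adjusted p alone. Its brightest member, miR-494, read 10.81 on each control array and 10.38, 10.47 and 10.38 with treatment. The Sfmbt2 cluster, a mouse-specific cluster of repeated miRNAs within an imprinted gene, lay on the other side of 0: 4 of 20 were called higher, 15 were higher by adjusted p alone, and the median was 0.75. Over all miRNAs tested, 13.2% were called higher. miR-669b read 5.63, 5.58 and 5.12 against 6.40, 6.48 and 6.61 (difference 1.05 ± 0.12), and 0.98 with the 75th percentile of detected miRNAs. Its other called members, miR-466d-3p, miR-466f-3p and miR-466g, were weak, at or below 3.45 on every array, and not called with all 39 arrays in the fit. They are near-identical and uncertain one by one. miR-466d-3p had the largest difference of these, at 1.50 ± 0.40 (adjusted p = 0.00914).

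Several broadly expressed families had no called member. These were miR-30 and miR-26 (9 tested, median -0.17), miR-34 (3 tested), miR-29 (3 tested), miR-148 and miR-152 (3 tested) and the miR-183 cluster (4 tested, median 0.62), of which miR-152 was at 1.20 without passing the test. miR-29a, at -0.08, stood at 1.25 against the same-slide control of day 5 (adjusted p = 6.12e-13). miR-26a read 8.61, 8.61 and 8.82 against 8.40 on each treated array. miR-96 of the miR-183 cluster, known from sensory epithelia, was higher by 0.82 ± 0.08. Of miR-130 and miR-301, 1 of 5 was called, and it was lower, against 7.52% of all miRNAs tested. miR-130b* fell from 4.55 ± 0.15 to 3.36 ± 0.26, though within 2-fold with the 75th percentile of detected miRNAs (-0.93). miR-130a was at 10.59 ± 0.18 against 10.40 ± 0.11 and did not pass the test.

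Some of the brightest falls concern miRNAs without an established role in these cells. miR-1224, made from a short intron, read 13.32 on each control array, the top rank, and 11.75, 12.18 and 11.75 with treatment (2.70-fold lower, adjusted p = 1.99e-06). With the 75th percentile of detected miRNAs it was 1.60-fold lower, and with quantile normalization within each day it stood at -0.95, so the call was lost under both. miR-709 read 11.43, 11.43 and 11.75 against 10.27, 10.38 and 10.27, a difference of -1.22 that became -0.81 with the 75th percentile of detected miRNAs. miR-1187 and miR-574-5p were 2.54-fold and 2.44-fold lower in the main comparison, but stood at -0.60 (adjusted p = 0.509) and -0.68 (adjusted p = 0.0447) against the same-slide control of day 5. miR-489, encoded within Calcr, was not detected in control and read 3.71, 3.52 and 3.34 with treatment, at least 2.17-fold higher (adjusted p = 1.22e-08). At the 2-fold limit, miR-706 lay just inside at 1.01, and miR-297a*, miR-878-3p, miR-7b and miR-685 lay just outside at 1.00, -0.97, 0.97 and -0.96.

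The single treatments of day 3 show which differences either factor gave alone. They share the control arrays with the main comparison, so the values are set side by side. Activin A alone gave 62 calls of 319 (19.4%), 41 higher and 21 lower, and Wnt3a alone gave 10 (3.13%), all higher. For the miR-200 family, Activin A alone gave differences of 1.68 for miR-200b, 1.85 for miR-200a and 2.50 for miR-141, and Wnt3a alone 0.25, 0.43 and 0.36. miR-219 was at -5.74 with Activin A and 0.11 with Wnt3a, miR-335-5p at -2.72 and 0.15, miR-124 at -2.09 and -0.24, and miR-291a-3p at 1.64 and 0.38. Each of these named miRNAs was past 2-fold with Activin A and within 2-fold with Wnt3a.

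Adding Wnt3a to Activin A gave 13 calls of 319 (4.08%) in the direct comparison of the combined treatment with Activin A alone, 6 higher (1.88%) and 7 lower (2.19%). miR-10a was lower by 2.19 with the combination (adjusted p = 2.2e-05), as Activin A alone had left it at a difference of -1.15 from control and Wnt3a alone at 1.41. miR-10b was higher by 1.23 (adjusted p = 0.00076), and miR-489 lower by 1.08 (adjusted p = 1.6e-05). miR-302b* and miR-302c* were higher by 1.33 and 1.12. miR-9* (-3.0), miR-542-3p (-2.12), miR-1196 (-2.07) and miR-31* (-1.28) were detected on all Activin A arrays and on at most 2 arrays of the combination, and miR-340-3p was at -1.76. miR-762, miR-24-2* and miR-466d-3p were higher, at 1.99, 1.64 and 1.37. With normexp none of the 13 was called, while 134 miRNAs had an unadjusted p under 0.05, and the 2 groups lay on different slides.

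For other miRNAs the combination and Activin A alone differed by less than 2-fold. The difference between them was 0.09 for miR-200b, with a 95% confidence interval from -0.05 to 0.23, -0.03 for miR-200a (-0.21 to 0.16), -0.21 for miR-124 (-0.47 to 0.06) and -0.15 for miR-291a-3p (-0.41 to 0.10). miR-335-5p and miR-125b-5p were less low with the combination, by 0.36 (adjusted p = 0.012) and 0.56 (adjusted p = 0.00027), and miR-23a and miR-27a higher, by 0.48 and 0.36, all within 2-fold. miR-322 was lower by 0.27 with the combination (adjusted p = 0.0081). miR-9 was lower by 0.99 (adjusted p = 1.2e-05), against a difference of 0.59 from control with Activin A alone.

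Set against Wnt3a alone, the combination gave 59 calls (18.5%), 32 higher and 27 lower. miR-219 differed by -5.85, miR-10a by -4.75, miR-222 by 3.53, miR-335-5p by -2.51, miR-302a* by 1.98 and miR-200b by 1.52, each with an adjusted p under 0.05. The interaction, the part of the combined difference that the sum of the single differences does not give, passed an adjusted p of 0.05 for 73 of 319 (22.9%), 36 above and 37 below 0. In the miR-302 cluster it was positive: 1.29 for miR-302a* (adjusted p = 1e-05), 1.08 for miR-302b, 0.93 for miR-302c, 0.69 for miR-302a and 0.68 for miR-302d. Wnt3a alone lowered miR-302a*, miR-302b and miR-302c by 0.76, 0.77 and 0.77, within 2-fold, and Activin A alone raised them by 0.69, 0.42 and 0.52, also within 2-fold. The combination was above both single treatments for these 3, with adjusted p from 6.7e-09 to 0.011. miR-9* and miR-10a were negative, at -3.65 (adjusted p = 0.018) and -3.60 (adjusted p = 1.2e-05), and so were miR-293* at -1.20 and miR-489 at -1.08, for each of which the floor limits one side. miR-92a was positive at 0.59, with single differences of -1.20 and -0.85. With all 39 arrays in the fit, 23 interactions passed. The combination lay on a slide of its own among the groups compared, scanned in a later session than the others. Slide and session therefore cannot be told apart from the interaction, nor from the difference from Wnt3a alone.

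**Figure D4:**
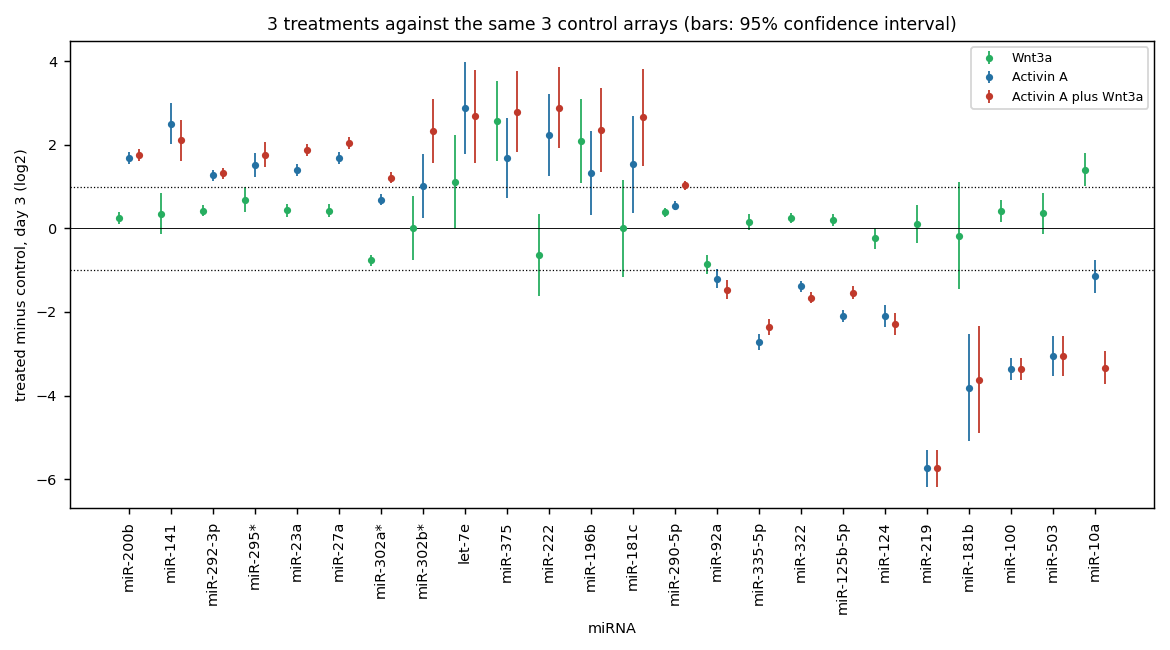
Log2 difference from control at day 3 for Activin A, Wnt3a and Activin A plus Wnt3a (3 arrays each, shared control arrays), one column per miRNA with bars for the 95% confidence interval and dotted lines at 2-fold. Wnt3a points lie near 0 for miR-200b, miR-219 and miR-335-5p, where the other 2 treatments lie close together, and miR-10a separates all 3.

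Days 1 and 5 give the course on other arrays. At day 1, 13 of 238 miRNAs tested (5.46%) were called between the treated and control groups, 9 higher (3.78%) and 4 lower (1.68%), and at day 5, 108 of 358 (30.2%). Of the 66 miRNAs called at day 3, 61 had the same sign at day 5 and 43 were called in the same direction, with none called in the opposite one. At day 1, 47 of them could be tested, 34 had the same sign and 4 were called in the same direction. The effect differed between day 5 and day 3 for 106 of 363 miRNAs (29.2%) and between day 3 and day 1 for 80 (22%), 46 of them more positive at day 3 (12.7%) and 34 more negative (9.37%), by a test of the difference with an adjusted p under 0.05. Days also differ in slide and session.

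The miR-200 family parted from control in steps. miR-200b averaged 7.22 in ESCs, and 8.28 in control and 8.31 with treatment at day 1. It was 7.38 and 9.14 at day 3, and 5.87 and 9.07 at day 5. In the means, the control level came down while the treated level stood near 9. miR-141 was at 3.67 and 3.53 at day 1, 3.53 and 5.64 at day 3 and at the floor of 1.00 and 5.79 at day 5. miR-291a-3p stood at 12.18 in both groups at day 1, at 10.90 and 12.38 at day 3 and at 9.78 and 12.59 at day 5, so that here too the treated cells stayed at or above the ESC level of 12.18. miR-294 read 13.32, the value given to the top rank, in treated cells on all 3 days, while control went from 13.32 to 12.89 and 11.22. Quantile normalization gives equal ranks equal values, so an unchanged 13.32 shows an unchanged rank and not an unchanged level. The equal 12.18 of miR-291a-3p can arise in the same way.

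Other miRNAs had their highest control means at day 5. miR-219 was at the floor in ESCs and in both groups at day 1, reached 6.74 in control at day 3 and 8.46 at day 5, and was 1.38 with treatment at day 5. miR-124 went from 5.52 at day 1 to 6.02 and 7.80 in control, against 5.49, 3.72 and 3.09 with treatment. miR-335-5p had higher means at each later day in both groups, from 5.76 to 8.72 and 9.27 in control and from 5.53 to 6.36 and 7.70 with treatment. miR-322 was at 3.93, 6.97 and 8.02 in control and 3.42, 5.32 and 6.67 with treatment. miR-100 reached 6.45 in control at day 5 and was at the floor with treatment. These are group means of 3 arrays, and the course within a group was not tested.

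A smaller set had higher treated means at each later day. miR-375 was at the floor in ESCs and at day 1 in both groups, at 1.59 and 4.38 at day 3, and at 1.00 and 6.27 at day 5. miR-196b stood at 1.00 in control and 5.76 with treatment at day 5, and miR-489 at 1.00 and 3.68. miRNAs called at day 3 but not at day 5 included miR-222, miR-302b* and miR-99b*. In control and with treatment at day 5 they stood at 3.45 and 3.87 (miR-222, adjusted p = 0.52), 1.00 and 1.03 (miR-302b*), and 2.97 and 3.18 (miR-99b*). The loss of a call does not show that the effect changed between the days. In the test of that change, miR-222 and miR-99b* were not among the named results that differed between day 5 and day 3. miR-302c of the miR-302 cluster averaged 7.18 in ESCs, 5.74 and 5.64 at day 1, 9.05 and 9.74 at day 3, and 7.56 and 9.54 at day 5.

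**Figure D5:**
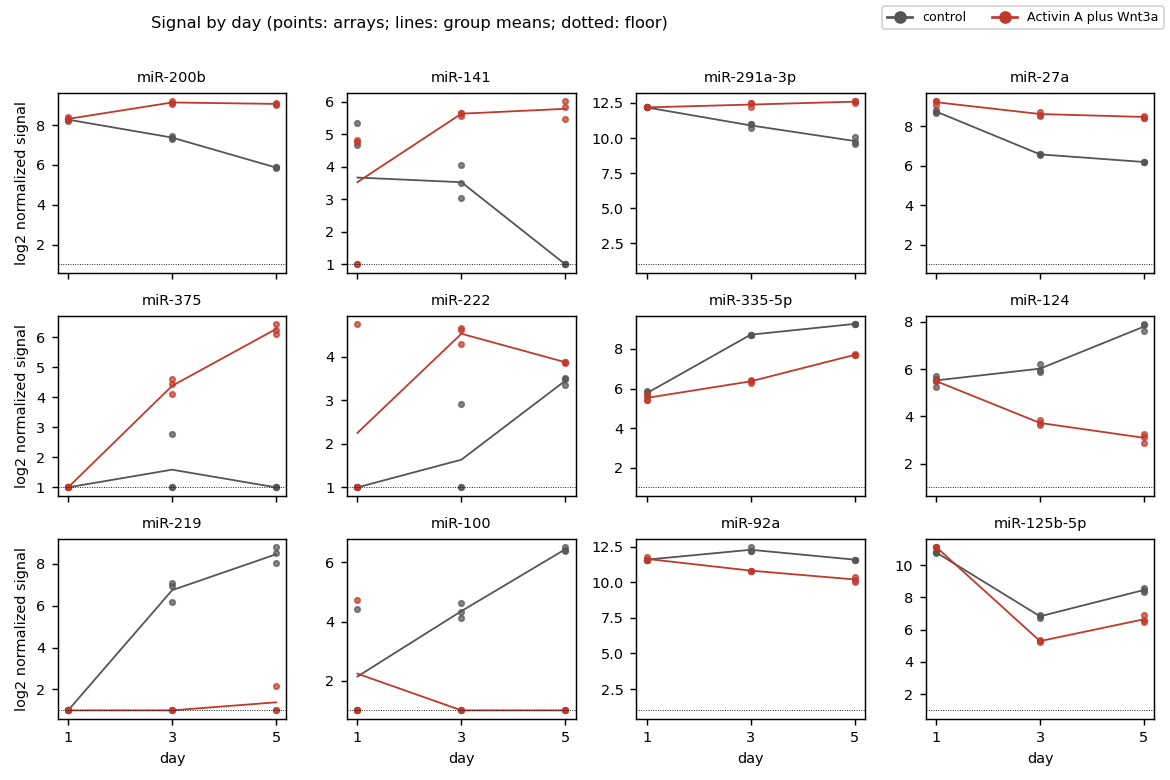
Log2 normalized signal (y axis) at days 1, 3 and 5 (x axis) of control and Activin A plus Wnt3a cells, one panel per miRNA. Points are single arrays, lines join the group means and the dotted line is the floor. The 2 groups start together at day 1 for miR-200b, miR-291a-3p, miR-335-5p, miR-219 and miR-124 and are apart at day 3.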

How the data were processed

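Total RNA was labelled with Cy3 and hybridised to 1-colour Agilent mouse miRNA arrays. The deposited scanner files hold, per the file headers, intensity values from Agilent Feature Extraction 10.7.3.1 (the submitters' notes name 9.5.3.1): the total signal of each miRNA over its probes, after the software's background subtraction, with 0.1 where it is not detected, and a detection flag. The authors' normalized value table was not used here. The authors' other values per spot served only for the normexp alternative.

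Total signals of 39 arrays (650 rows, 39 of them viral) were quantile normalized, set to at least 2 and taken to log2. limma 3.58.1 (R 4.3.3) was fitted with group alone to the 12 arrays of day 3, and to all 39 for tests between days. miRNAs detected on at least 2 of 3 arrays of a group of that day were tested (326 rows, 319 of mouse), with Benjamini-Hochberg adjustment over all rows. Called means adjusted p under 0.05 and over 2-fold. The interaction and the differences between days have no fold limit. A bound uses, per array, the weakest detected signal. The number of arrays limits the precision. Replicate numbers did not pair the arrays (correlations 0.05, -0.15 and 0.09 over 243 miRNAs).

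The comparison, the miRNA lists and the named miRNAs were chosen with earlier results of these data known. Named were the 12 largest called differences each way among miRNAs detected on all arrays, the 4 largest bounds each way, up to 4 called members and the brightest member of each list, miRNAs the study discusses, the other strands of these, and 5 on each side of the 2-fold limit. Others are named where a list or family is counted, and were chosen after their values were seen. Probes of near-identical miRNAs can cross-hybridise. The fit was tested on simulated data. Alternatives covered normalization, background, floor, filter, arrays in the fit, slide, replicate block, the methods' plain test and leaving out each array.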

Additional observations from a re-analysis of the deposited data

Results flagged for a closer look

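The difference between Activin A plus Wnt3a and control was itself tested between days (limma, all 39 arrays, 363 miRNAs), and 36 named results differed. Values are the later effect minus the earlier one on the log2 scale, and the days also differ in slide and session. Where a miRNA was not detected in a group, its value depends on the floor.

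From day 3 to day 5 the effect was more positive by 1.44 for miR-200b, 1.76 for miR-200c, 1.98 for miR-429 and 1.74 for miR-200a, as well as by 1.32 for miR-291a-3p, 1.48 for miR-291a-5p and 1.41 for miR-294*. It was also more positive for miR-375 by 2.48 (adjusted p = 7.95e-05), for miR-199a-3p by 2.16 (adjusted p = 0.0496), and for miR-503 by 0.946. It was more negative for miR-124, at -2.41, miR-219, at -1.33, and miR-338-5p, at -2.09 (adjusted p = 0.00166).

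Between day 1 and day 3 the effect became more positive for miR-200b (1.73), miR-200c (1.52), miR-429 (1.51), miR-200a (1.50), miR-291a-3p (1.48), miR-295* (1.28), miR-23a (1.06) and miR-27a (1.57). Among weak miRNAs it did so for miR-489 (2.52), let-7e (2.59), miR-375 (2.79) and miR-338-5p (2.01). It became more negative for miR-219 (-5.74), miR-10a (-3.39), miR-503 (-3.06), miR-124 (-2.27), miR-335-5p (-2.12), miR-125b-5p (-1.88) and miR-92a (-1.52). The same held for miR-1187 (-3.18), miR-574-5p (-1.25), miR-709 (-1.17) and miR-1224 (-0.912). Adjusted p-values ran from 6.63e-16 for miR-489 to 0.0352 for miR-335-5p.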

How the results depend on the processing

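Calls against control numbered 66, and stayed between 49 and 68 under the settings tried other than these: 15 with normexp, 37 for miRNAs detected on all arrays, and 129 against the control of day 5 on the same slide (chosen after seeing the data). For Activin A plus Wnt3a against Activin A, 13 calls (6 of them higher) became 21 with the 75th percentile of detected miRNAs (19 higher, median shift 0.10), 0 with normexp, 8 with a floor of 1 (3 higher), 5 with a floor of 8, 8 with no filter, 2 for miRNAs detected on all arrays, 9 with quantile normalization of log2 signals (3 higher) and 8 with only the groups compared in the fit. Against Wnt3a, 59 became 10 with normexp and 34 for miRNAs detected on all arrays. The interaction gave 73, and 23 with all 39 arrays in the fit or 37 with slide as a random block there. The effect at day 5 against day 3 gave 106 (58 positive), and 185 with only the groups compared, and that at day 3 against day 1 gave 80 (46 positive), and 125. The 75th percentile of detected miRNAs gave 54 positive of 88 interactions (36 of 73 in the main setting), 33 of 93 for day 5 against day 3 (median shift -0.29) and 64 of 89 for day 3 against day 1. Leaving out each array gave 60 to 70, 9 to 14, 52 to 61, 50 to 87, 93 to 144 and 65 to 139 in the same order, the 139 without Wnt3a day 5 replicate 1. A replicate block gave 66, 11, 61, 55, 110 and 84, and slide as a random block 66, 11, 58, 68, 132 and 110. Slide as a fixed term could not be fitted. Of 1469 values of the 88 named miRNAs under alternatives, 1288 kept direction and side of the threshold, 140 lost and 30 gained the call (43 of the losses with normexp), and 11 changed sign; the cause was not tested. The sign changed for miR-294* (-0.37) and miR-126-3p (0.0106) with normexp, miR-126-3p (0.0454) and miR-34a (-0.0481) with the 75th percentiles, and, against the same-slide control of day 5, miR-99b* (0.0296), miR-92a* (0.0329), miR-21 (-0.55), miR-218 (-0.38), miR-10b (-0.91), miR-126-3p (0.66) and miR-29a (1.25, called there). Leaving out 1 array turned only miR-29a (-0.18 to 0.0264) and miR-126-3p (-0.11 to 0.0221), both near 0. Weak miRNAs are limited by detection, with lowest detected signals between 3.53 and 11.3 on the control arrays.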
